A study of Mus musculus with 10 samples.

Results

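Regulatory T cells (Tregs) are CD4 T cells that restrain immune responses, and the transcription factor Foxp3 both marks them and maintains their program. Follicular Tregs are the subset that enters the B cell follicle and limits the germinal center (GC) reaction, and they share the receptor Cxcr5 and the repressor Bcl6 with follicular helper T (Tfh) cells. Activated Tregs are known for a set of effector molecules, among them receptors that capture cytokines and peptides that are secreted. The 10 genes described here are a named set of such Treg genes, in which Foxp3 and Ikzf2 are transcription factors of the lineage, Il1r2, Penk, Nrn1, Prg4 and Ly6a encode surface or secreted products, Sncg encodes a cytosolic protein known from neurons, Klf5 is a further transcription factor and Fabp5 carries fatty acids inside cells. They were listed by name and read as rows of each count matrix. They are 10 of the 31053 genes in the files, of which 19038 had at least 1 UMI (unique molecular identifier, 1 counted RNA molecule). The list was drawn up with expression values of these cells in view, so neither the restriction of the genes to Foxp3-positive cells nor their follicular pattern is tested below, and no test is run over the list as a whole.

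The cells came from the spleens of mice on the BXD2 background, a recombinant inbred line prone to autoantibodies and spontaneous germinal centers. There were 3 BXD2-p19-/- mice, without the p19 chain of interleukin-23 (mice 1 and 2 female, mouse 3 male), and 2 BXD2-WT mice, both female. All 5 mice share the BXD2 background, and p19-/- was the only allele named. The labels name B cells and T cells of the spleen, the series design names GC B cells, and neither gives an age, a capture day or a sorting gate. Each mouse gave 1 droplet 5′ RNA library and 1 B cell receptor (BCR) library, and the mouse is the replicate throughout.

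The RNA libraries held 1104 to 3226 barcodes and 7712457 to 18093053 UMIs each, and 68 barcodes occurred in more than 1 library. After filtering, 9200 cells in 22 clusters remained. Il23a, which encodes p19, had 0 UMIs in all 5 libraries, a depth at which a level of up to 0.166 to 0.389 CPM (UMIs per 1000000 UMIs) is allowed by a floor of 3 counts, so the genotype labels could not be checked by that gene. The cells were clustered with the 10 genes left out. A cluster of 944 cells was named Treg-like from 10 other Treg markers, such as Il2ra, Ctla4, Tnfrsf9 and Ikzf4, and 5 of these markers were among its 10 leading genes. It held 120, 77 and 287 cells in p19-/- mice 1 to 3 and 252 and 208 cells in WT mice 1 and 2, with median depths of 2475 to 4431 UMIs. Foxp3, which had no part in building the cluster, had at least 1 UMI in 524 of its 944 cells (55.5%). The main comparison class was 1954 Tfh-like cells, and the unnamed T cell clusters are called by their leading genes (Il7r and histone genes).

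Sequence upstream of the start was on hand for Foxp3, Il1r2 and Sncg. It is shown for Foxp3, the gene that defines the lineage, and for Sncg, the member with the largest genotype difference. Both stretches are the 250 bases before the annotated start in RefSeq, build GRCm38.p6, read 5′ to 3′ on the gene's own strand, and capitals mark matches to the motifs searched.
Foxp3, chrX:7579426-7579675, plus strand: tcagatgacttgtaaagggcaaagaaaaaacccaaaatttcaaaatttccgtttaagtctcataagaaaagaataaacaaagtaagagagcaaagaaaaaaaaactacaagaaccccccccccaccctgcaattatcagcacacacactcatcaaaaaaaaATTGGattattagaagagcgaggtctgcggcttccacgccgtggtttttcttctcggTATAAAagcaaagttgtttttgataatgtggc
Sncg, chr14:34374670-34374919, minus strand: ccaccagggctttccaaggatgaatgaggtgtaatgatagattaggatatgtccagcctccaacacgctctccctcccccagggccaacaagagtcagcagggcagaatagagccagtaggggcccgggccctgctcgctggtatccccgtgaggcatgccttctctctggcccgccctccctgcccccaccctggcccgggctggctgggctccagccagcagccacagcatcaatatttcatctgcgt
Both strands were searched for the TATA box letters TATAAA and for CCAAT. The AP-1 motif was searched as TGANTCA. The STAT motif was searched as TTCNNNGAA. The Foxp3 stretch held TATAAA, beginning 32 bases before the start, and CCAAT as its reverse complement ATTGG, beginning 89 bases before the start. The Sncg stretch held none of the 4, which says only that these letters are not in this window. Of 32851 RefSeq promoter windows of this length, 12.4% held TATAAA, 33.8% CCAAT, 6.75% the AP-1 letters and 7.02% the STAT letters. The GC content was 37.6% for Foxp3 and 61.6% for Sncg.

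Foxp3, the lineage factor, lies on chromosome X (7579676 to 7595243, mm10). In Treg-like cells it was at 321, 528 and 345 CPM in p19-/- mice 1 to 3 and 389 and 389.5 CPM in WT mice 1 and 2. In Tfh-like cells it was at 5.90, 2.74 and 14.5 CPM in p19-/- mice 1 to 3 and 17.7 and 16.7 CPM in WT mice 1 and 2, so that every mouse stood higher in Treg-like cells and the classes did not overlap. The Treg-like cluster held 83.5% of all its UMIs in kept cells. Cells were next thinned to 2000 UMIs each so that depth could not set the share of cells with a UMI. This left out 137 of the 944 Treg-like, 269 of the 1954 Tfh-like and 147 of the GC B-like cells, which were shallower. A Foxp3 UMI was found in 45.2% of thinned Treg-like cells, 1.42% of Tfh-like cells and 0.0352% of GC B-like cells, the last being a class that should lack the gene (55.5%, 2.56% and 0.435% before thinning). The cluster led by histone genes, 60 cells in all, was at 18.7, 629.7 and 131 CPM of Foxp3 (p19-/-) and 90.9 and 123 CPM (WT), where the value of p19-/- mouse 2 is 1 cell with 6 UMIs.

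Ikzf2 encodes Helios, an Ikaros family transcription factor that most thymus-derived Tregs carry (chromosome 1, 69531207 to 69687351). It was at 592, 842 and 836 CPM (p19-/-) and 869.9 and 843 CPM (WT) in Treg-like cells. In Tfh-like cells it was at 292, 295 and 377 CPM (p19-/-) and 296 and 311 CPM (WT). Treg-like cells were higher in every mouse, yet 41.0% of thinned Tfh-like cells had an Ikzf2 UMI against 76.0% of Treg-like cells and 0.316% of GC B-like cells. Treg-like cells held 46.9% of its UMIs.

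Il1r2 encodes the decoy receptor that binds interleukin-1 without signaling (chromosome 1, 40084692 to 40125230). It was at 585, 643 and 482 CPM (p19-/-) and 415 and 606 CPM (WT) in Treg-like cells. The Tfh-like values were 91.8, 61.3 and 94.5 CPM (p19-/-) and 87.1 and 169 CPM (WT), again lower in every mouse. Outside T cells it appeared in Neutrophil-like cells, at 195 ± 181 CPM (SD, n = 5 mice) in 62 cells. Neutrophils are a textbook source of this receptor.

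Penk encodes proenkephalin, the precursor of opioid peptides (chromosome 4, 4133536 to 4138815). It was at 292, 465 and 414 CPM (p19-/-) and 488 and 316 CPM (WT) in Treg-like cells. In the Il7r-led T cell cluster it was at 639, 119.6 and 558 CPM (p19-/-) and 84.6 and 241 CPM (WT), above the Treg-like value in p19-/- mice 1 and 3 and below it in the other 3. In Tfh-like cells it was at 36.1, 93.3 and 34.4 CPM (p19-/-) and 58.7 and 51.1 CPM (WT). Few cells carried it. Of the 944 Treg-like cells, 122 (12.9%) had a Penk UMI, and the 36 cells with at least 10 UMIs held 81.5% of the 1521 Penk UMIs. In WT mouse 1 a single cell held 201 of 381 (52.8%). Summed Penk values therefore rest on a handful of cells per mouse.

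Nrn1 encodes neuritin, a small protein tethered to the cell membrane by a lipid anchor (chromosome 13, 36725622 to 36734477). Its Treg-like values were 230.0, 724 and 437 CPM (p19-/-) and 498 and 328 CPM (WT). The Il7r-led T cells were at 309, 296 and 241 CPM (p19-/-) and 236 and 256 CPM (WT), above the Treg-like value in p19-/- mouse 1 only. Tfh-like cells were at 154, 106 and 103 CPM (p19-/-) and 135 and 127 CPM (WT), below the Treg-like value in every mouse.

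Sncg encodes gamma-synuclein, a neuronal protein of the synuclein family (chromosome 14, 34370274 to 34374669, minus strand). It was the member most concentrated in the Treg-like cluster: 49 kept cells had an Sncg UMI, 46 of them were Treg-like, and the cluster held 97.3% of its UMIs. Of those 46 cells, 32 also had a Foxp3 UMI. In thinned cells 3.47% of Treg-like, 0 of 1685 Tfh-like and 0 of 2844 GC B-like cells had an Sncg UMI, and 0 of 1685 allows a share of up to 0.219% (exact 95% interval, counting error only).

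Prg4 encodes lubricin, a secreted proteoglycan known from joints (chromosome 1, 150449412 to 150466221). Treg-like cells held 51.6% and Tfh-like cells 32.0% of its UMIs, and 6.69% and 2.49% of thinned cells had one, against 0.0703% of GC B-like cells. Klf5 encodes a zinc finger transcription factor of the Krüppel-like family (chromosome 14, 99298691 to 99313412). Its mean was 33.3 ± 15.1 CPM in Treg-like, 5.42 ± 2.24 CPM in Tfh-like and 60.9 ± 65.5 CPM in Neutrophil-like cells (SD, n = 5 mice). Treg-like cells were above Tfh-like cells in every mouse for Klf5. For Prg4 they were above in p19-/- mice 1, 2 and 3 and in WT mouse 2 but not in WT mouse 1.

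Fabp5, a carrier of fatty acids within cells (chromosome 3, 10012585 to 10016610), and Ly6a, the lipid-anchored surface protein Sca-1 (chromosome 15, 74994877 to 74998031), were not confined to Treg-like cells. Fabp5 averaged 154 ± 77.5 CPM in Treg-like, 237 ± 157 CPM in Macrophage-like and 50.6 ± 18.9 CPM in GC B-like cells, and GC B-like cells, being many, held 49.3% of its UMIs. Ly6a averaged 937 ± 317 CPM in Treg-like, 1321 ± 291 CPM in the Il7r-led T cells and 732 ± 148 CPM in Tfh-like cells (SD, n = 5 mice). After thinning, 51.9% of Treg-like, 53.0% of Tfh-like and 29.5% of GC B-like cells had a Ly6a UMI.

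**Figure D1:**
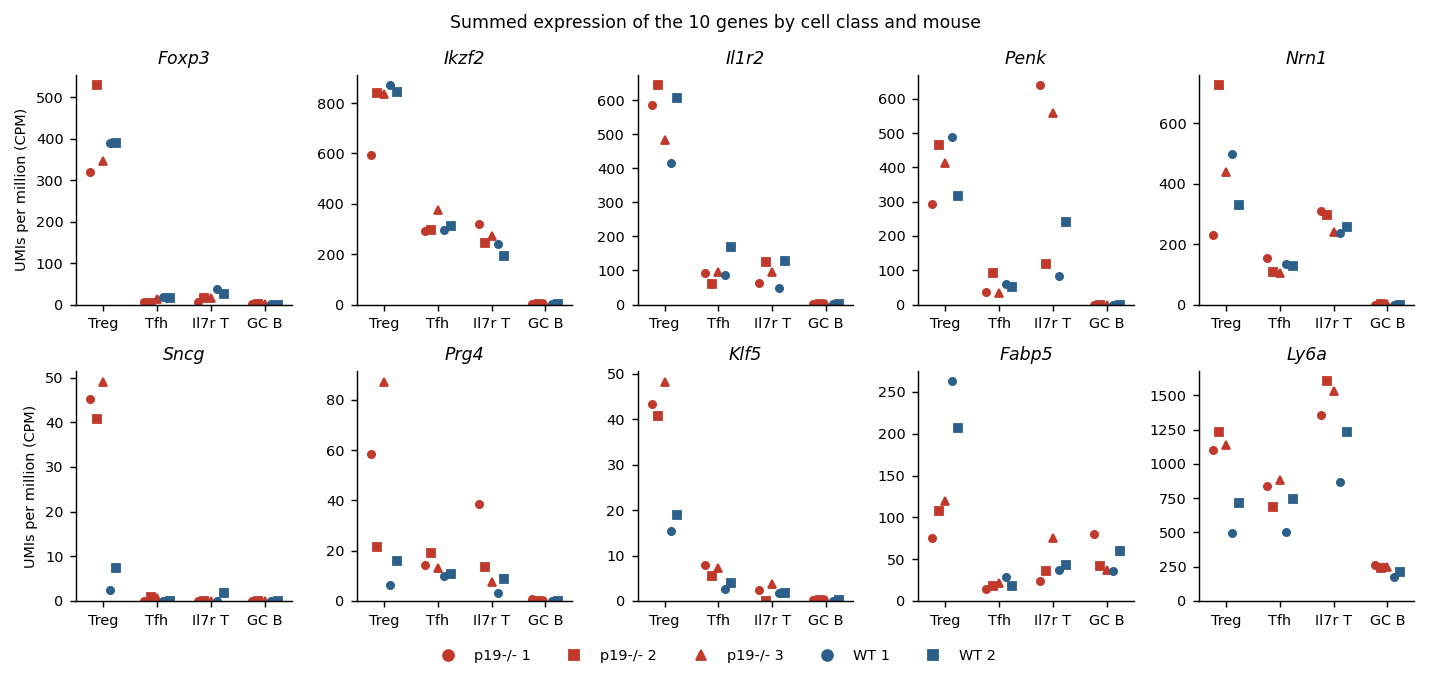
Summed CPM of each gene (y axis, linear, starting at 0, own scale per panel) in Treg-like, Tfh-like, Il7r-led T and GC B-like cells (x axis). Each point is 1 mouse, red for p19-/- and blue for WT, with the shape giving the mouse. The 5 Treg-like points of Foxp3, Ikzf2, Il1r2 and Klf5 stand above all points of the other 3 classes, whereas Ly6a is highest in Il7r-led T cells.

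The genes were then compared between CD4 T cells with and without a Foxp3 UMI, a split that does not use the Treg-like cluster. It set 624 cells with a UMI (64 to 171 a mouse) against 2998 cells without (329 to 800 a mouse). Of the 9 other members, 8 had a mean at least 2-fold higher in cells with a Foxp3 UMI, against a background of 4.33% of 10003 genes. Of the 9, 6 were higher in each of the 5 mice (Ikzf2, Il1r2, Penk, Nrn1, Klf5 and Fabp5), against a background of 13.1%. The genes were listed for this pattern, so nothing is read from either count.

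Il1r2 was at 533, 588 and 444 CPM (p19-/-) and 308 and 514 CPM (WT) with a Foxp3 UMI. Without one it was at 132, 114 and 161 CPM (p19-/-) and 113 and 215 CPM (WT), a ratio of the means of 3.25. Klf5 rested on fewer molecules, at 69.6, 45.0 and 51.6 CPM (p19-/-) and 13.5 and 34.5 CPM (WT) with and 8.96, 4.36 and 13.7 CPM (p19-/-) and 3.17 and 4.96 CPM (WT) without a Foxp3 UMI. Its ratio was 6.10, and every mouse was higher with a Foxp3 UMI. The ratio of the means was 3.79 for Fabp5, 3.60 for Penk, 2.45 for Nrn1 and 2.23 for Ikzf2. Sncg had a ratio of 12.6 and was higher in 4 of 5 mice, the exception being WT mouse 1, with no Sncg UMI in its Foxp3-positive cells. Prg4 had a ratio of 2.08 and was higher in the 3 p19-/- mice only. Ly6a had a ratio of 1.04 and was higher in p19-/- mice 1 and 2 only.

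**Figure D2:**
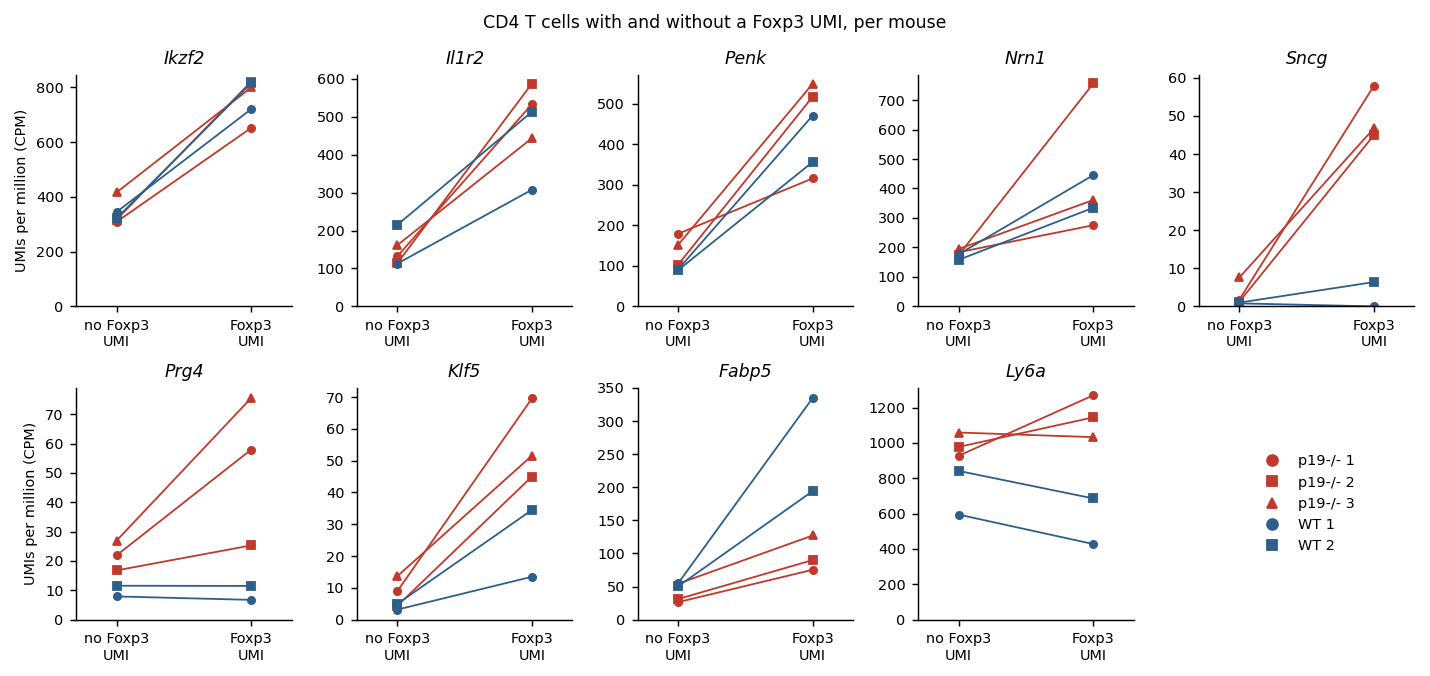
CPM of the 9 members other than Foxp3 (y axis, linear, starting at 0) in CD4 T cells without and with a Foxp3 UMI (x axis); each line joins the 2 values of 1 mouse, red for p19-/- and blue for WT. Lines rise in all 5 mice for Ikzf2, Il1r2, Penk, Nrn1, Klf5 and Fabp5, and rise in 2 of 5 for Ly6a.

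A cell that carries Foxp3 RNA can lack a UMI of it at this depth, so the split was repeated inside the Treg-like cluster, with 524 cells against 420. Ikzf2, Il1r2, Prg4, Fabp5 and Ly6a then hardly differed, with ratios of the means of 1.05, 0.959, 0.958, 0.951 and 1.00. The ratio was 1.52 for Nrn1 and 2.34 for Sncg, each higher in 4 of 5 mice. Penk did differ: it was at 382, 563 and 658 CPM (p19-/-) and 653 and 474 CPM (WT) in Treg-like cells with a Foxp3 UMI. In those without it was at 188, 111 and 63.7 CPM (p19-/-) and 221 and 72.1 CPM (WT), lower in every mouse, with a ratio of 4.16 and of 4.38 with the highest Penk cell of each mouse and subset left out. Klf5 was higher in every mouse as well, with a ratio of 2.04, although the ratio within a mouse was only 1.03 in p19-/- mouse 3 and 1.01 in WT mouse 2. The reverse comparison, Treg-like cells without a Foxp3 UMI against other CD4 T cells without one, gave ratios of 5.94 for Il1r2, 5.70 for Fabp5, 4.21 for Klf5, 2.74 for Ikzf2 and 2.11 for Nrn1. For Penk it gave 1.06 and for Ly6a 1.08. It gave 3.06 for Prg4, and Sncg averaged 15.7 CPM in the Treg-like cells, higher in 5 of 5 mice, against 0.3004 CPM in the others. Outside the cluster, in 100 other CD4 T cells with a Foxp3 UMI against 2578 without, the ratio was 6.56 for Fabp5, 2.13 for Il1r2 and 2.13 for Ikzf2, each higher in 5 of 5 mice. There it was 0.245 for Penk, higher in 1 of 5 mice, 9.62 for Klf5 (3 of 5), 2.66 for Prg4 (2 of 5), 1.02 for Nrn1 (2 of 5) and 0.874 for Ly6a (1 of 5), and Sncg had no UMI in the 100 cells. Against other CD4 T cells without a Foxp3 UMI, Fabp5, Il1r2 and Ikzf2 were thus higher on either criterion, the cluster or the Foxp3 UMI. Penk was higher in 3 of 5 mice by the cluster alone and in 1 of 5 by the Foxp3 UMI alone. Those other cells include the Il7r-led cluster, where Penk was at 639 and 558 CPM in p19-/- mice 1 and 3. Measured against Tfh-like cells only, Treg-like cells without a Foxp3 UMI were higher for Penk in every mouse.

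Over 62 sums of 1 class in 1 mouse, the genes whose log2 CPM was most like that of Foxp3 among 11302 genes were Areg (Pearson r 0.88), Ccr8 (0.86), Tnfrsf9 (0.83), Ncmap (0.83) and Lrrc32 (0.82). Areg encodes amphiregulin, Ccr8 a chemokine receptor, Tnfrsf9 a costimulatory receptor and Lrrc32 the carrier of latent TGF-beta. The closest to Ikzf2 were Icos (0.91) and Lag3 (0.88), to Il1r2 Gm16894 (0.86) and Itgb8 (0.85), and to Penk Zdhhc15 (0.90) and Tnfrsf9 (0.89). Nrn1 was closest to Ncmap (0.93) and Slc24a3 (0.92), Sncg to Gm4858 (0.92) and Muc16 (0.87), and Prg4 to Ccdc80 (0.92) and to Nrn1 itself (0.91). For Klf5 the closest genes were Myo1d (0.69) and Acod1 (0.66), and for Ly6a Lax1 (0.84) and Gimap6 (0.83). These are descriptions, since sums of the same mouse share a library and its depth. Tnfrsf9 and Lrrc32 were also among the markers that named the cluster.

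Follicular Treg-like cells were defined by UMIs of at least 2 of the 4 genes Cxcr5, Bcl6, Pdcd1 and Tox2 (480 cells), and set against the 89 Treg-like cells with none of the 4, leaving 375 intermediate cells out. The second set was thin, with 4 to 39 cells a mouse. Foxp3, Ikzf2 and Fabp5 each moved the same way in all 5 mice. The background was 7.40% of 5920 genes higher and 3.73% lower in every mouse. By the size of the mean, 3 members were at least 2-fold higher in follicular cells (Sncg, Prg4 and Fabp5), against a background of 8.28%, with Sncg and Prg4 at 0 to 2 UMIs a mouse in the other cells.

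Foxp3 was at 322, 444 and 283 CPM (p19-/-) and 304 and 330.0 CPM (WT) in follicular cells. In the others it was at 366, 496 and 382 CPM (p19-/-) and 619 and 579 CPM (WT), a ratio of the means of 0.689. Ikzf2 was at 597, 854 and 809 CPM (p19-/-) and 877 and 728 CPM (WT) in follicular cells against 977, 1539 and 943 CPM (p19-/-) and 938 and 982 CPM (WT), a ratio of 0.719. Both lineage factors were lower on the follicular side than in these other cells in each mouse. Fabp5 ran the other way, at 66.0, 153 and 129.9 CPM (p19-/-) and 380.0 and 207 CPM (WT) in follicular cells. In the others it was at 30.5, 99.3 and 51.0 CPM (p19-/-) and 134 and 70.2 CPM (WT). These values rested on 1 to 13 UMIs a mouse, and the ratio was 2.43. Against the 375 intermediate cells none of these genes moved the same way in every mouse. There the ratio was 0.742 for Foxp3 (higher in 1 of 5 mice), 0.977 for Ikzf2 (3 of 5) and 1.44 for Fabp5 (3 of 5). With a Foxp3 UMI required in both subsets, 1 member moved the same way in every mouse, Ikzf2 (lower), and the smaller subset then held 3 to 24 cells a mouse.

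Pdcd1 is broadly present in activated CD4 T cells, so a narrower gate was used beside the first: a UMI of Cxcr5 or Bcl6 (325 cells) against neither (619 cells). Under it only Penk moved the same way in all 5 mice, against a background of 5.29% of 7412 genes higher and 5.57% lower in every mouse. No member was at least 2-fold higher with Cxcr5 or Bcl6 (background 0.729%). Penk was at 184, 62.9 and 138 CPM (p19-/-) and 139.8 and 114 CPM (WT) in cells with Cxcr5 or Bcl6. In cells with neither it was at 348, 676 and 642 CPM (p19-/-) and 639 and 421 CPM (WT), so the 2 sides did not overlap, and the ratio of the means was 0.234. The share of cells with a Penk UMI was 13.95%, 7.69%, 6.78%, 9.59% and 3.08% with Cxcr5 or Bcl6 in p19-/- mice 1 to 3 and WT mice 1 and 2. With neither it was 15.6%, 23.5%, 13.02%, 16.2% and 15.4%, higher in each mouse. With the highest Penk cell of each mouse and subset left out the ratio was 0.171, and it was lower in 5 of 5 mice. Under this gate the ratio was 0.791 for Foxp3 (lower in 4 of 5 mice), 0.925 for Ikzf2 (lower in 4 of 5) and 1.29 for Fabp5 (higher in 4 of 5). Under the first gate Penk had a ratio of 0.587 and was higher on the follicular side in 1 of 5 mice, but against the intermediate cells its ratio was 0.237 and it was lower in 5 of 5.

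**Figure D3:**
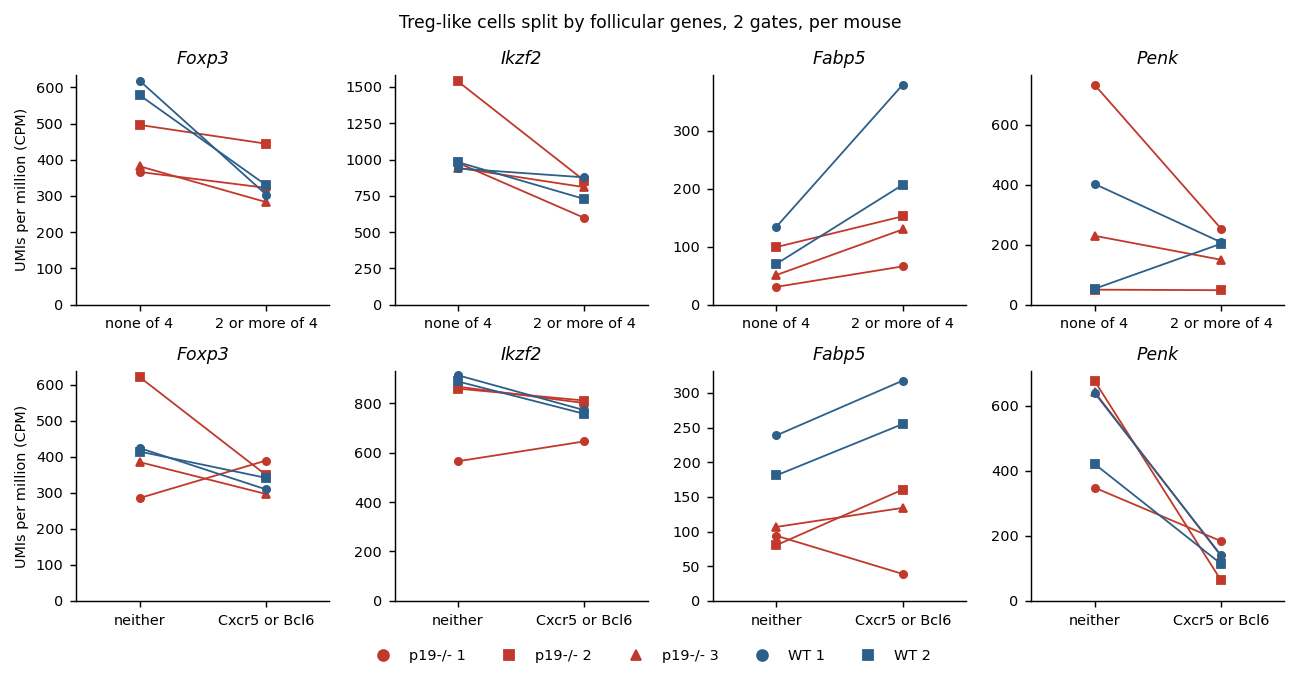
CPM (y axis, linear, starting at 0) of Foxp3, Ikzf2, Fabp5 and Penk in Treg-like cells by follicular gate. Top row: none against at least 2 of Cxcr5, Bcl6, Pdcd1 and Tox2. Bottom row: neither against either of Cxcr5 and Bcl6. Each line is 1 mouse. Penk falls in all 5 mice in the bottom row, to between 62.9 and 184 CPM.

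The remaining members showed no common direction under either gate. Il1r2, for instance, was at 589.6, 579.8 and 429 CPM (p19-/-) and 572 and 689 CPM (WT) with Cxcr5 or Bcl6 and 582, 676 and 526 CPM (p19-/-) and 347 and 564 CPM (WT) with neither. Sncg was seen on both sides of the narrower gate in all 5 mice, with 1 to 26 UMIs a mouse where Cxcr5 or Bcl6 was present and 1 to 32 where neither was.

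The share of follicular cells among Treg-like cells, after thinning, was 35.9%, 42.1% and 42.6% in p19-/- mice 1 to 3, compared with 37.0% and 26.7% for WT. The groups overlapped, and the difference of 8.39 percentage points had a p of 0.4 in a two-sided exact permutation test, in which 10 splits of 3 against 2 mice allow no p below 0.2. Without thinning the shares were 51.7%, 55.8% and 60.6% against 42.9% and 44.7%, without overlap (difference 12.3 points, exact p = 0.2, the smallest possible). Treg-like cells made up 18.1%, 17.6% and 33.4% of T cells in the p19-/- mice and 24.5% and 24.4% of those of the WT mice (difference −1.45 points, exact p = 1). The share of Treg-like cells with a Foxp3 UMI was 51.7%, 74.0% and 51.2% against 52.4% and 60.6% (exact p = 1).

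Genotype was compared on the summed UMI counts of Treg-like cells per mouse, with edgeR's quasi-likelihood test and Benjamini-Hochberg adjustment over all 7843 genes tested. Of these genes, 57 passed an adjusted p of 0.05, 40 higher and 17 lower in p19-/-, which is 0.727%. All 10 members were tested and 5 passed: Sncg, Prg4, Klf5 and Ly6a were higher in p19-/- (background for this direction 0.510%) and Fabp5 was lower (background 0.217%). Since the members were picked with results of these cells known, their count is not read against that background. In 6 members the 3 p19-/- values did not overlap with the 2 WT values, against a background of 23.0%. Of the 6, Sncg, Prg4, Klf5 and Ly6a were higher in p19-/- (background 10.4%) and Ikzf2 and Fabp5 lower (background 12.6%). The margin for Ikzf2 was very narrow, with 842.0 CPM in p19-/- mouse 2 and 842.9 CPM in WT mouse 2. A fold change is always p19-/- over WT.

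Sncg was at 45.3, 40.8 and 49.0 CPM (p19-/-) and 2.56 and 7.33 CPM (WT), from 24, 17 and 58 UMIs against 2 and 7. All 3 p19-/- mice stood above both WT mice, and the p19-/- mice lay close together. The log2 fold change was 3.13 ± 0.39 (SE) with an adjusted p of 0.000753 (edgeR). Of the Treg-like cells, 11 of 120, 8 of 77 and 20 of 287 had an Sncg UMI in p19-/- animals, against 2 of 252 and 5 of 208 in WT animals. The gene reached the test through its p19-/- counts. Without the male p19-/- mouse 3 its log2 fold change was 3.03 with an adjusted p of 0.0126. It was 2.65 without WT mouse 1 (adjusted p 0.0132) and 4.09 without WT mouse 2 (0.00457). In the p19-/- mice, Treg-like cells with an Sncg UMI were at 1822, 1793 and 2161 CPM of Ly6a against 1043, 1170 and 1051 CPM in those without. They were also at 850.2, 944 and 759 CPM of Il1r2 against 562, 609 and 458 CPM, and 81.8%, 87.5% and 65.0% of them had a Foxp3 UMI against 48.6%, 72.5% and 50.2%. Those 39 cells stood higher for both genes in each of the 3 mice, given here as a description. The CPM of Foxp3, Prg4 and Nrn1 were also higher in each mouse, but the other members were mixed. Ikzf2 was lower in p19-/- mice 2 and 3 (802 against 847 and 738 against 845 CPM). Fabp5 was lower in mice 1 and 3, Klf5 in mouse 2 and Penk in mouse 3 (0 against 450 CPM).

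Prg4 was at 58.5, 21.6 and 87.1 CPM (p19-/-) and 6.41 and 15.7 CPM (WT). The p19-/- mice were above the WT mice, but p19-/- mouse 2 and WT mouse 2 stood at 9 and 15 UMIs. The log2 fold change was 2.46 ± 0.46 (SE) with an adjusted p of 0.0125 (edgeR). DESeq2 gave an adjusted p of 0.651. Prg4, at 5 and 15 UMIs in the WT mice, reached the test through its p19-/- counts. Without p19-/- mouse 3, WT mouse 1 or WT mouse 2 it was 0.204, 0.304 and 0.0718 in edgeR, with log2 fold changes of 1.86, 2.01 and 3.26.

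Klf5 was at 43.4, 40.8 and 48.2 CPM (p19-/-) and 15.4 and 18.8 CPM (WT). The groups were well apart and the mice within each close together, on 12 to 57 UMIs a mouse. The log2 fold change was 1.40 ± 0.28 (SE) with an adjusted p of 0.0209 (edgeR), and DESeq2 gave 0.365. The call was lost without p19-/- mouse 3 (adjusted p 0.176), WT mouse 1 (0.321) or WT mouse 2 (0.163), and at a 5% mitochondrial limit (0.0566). Its log2 fold change lay between 1.16 and 1.55 in all 15 alternatives. With sex as a covariate neither Prg4 nor Klf5 passed (adjusted p 0.176 for Prg4 and 0.171 for Klf5). The only male was p19-/- mouse 3, so the sex term takes up that mouse. The genotype contrast then rests on the same mice as the fit without it, and sex is not adjusted for separately.

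Ly6a was at 1103, 1233 and 1139.9 CPM (p19-/-) and 496 and 712 CPM (WT), and all p19-/- mice were above both WT mice. Its log2 fold change was 0.95 ± 0.15 (SE) with an adjusted p of 0.00426 (edgeR). Fabp5 went down, at 75.4, 108 and 119 CPM (p19-/-) and 263 and 206 CPM (WT), again without overlap. Its log2 fold change was −1.17 ± 0.19 (SE) with an adjusted p of 0.00495 (edgeR). Both calls were lost only without WT mouse 1, the shallowest Treg-like sample by median depth, where the adjusted p was 0.346 for Ly6a and 0.239 for Fabp5 and the log2 fold changes were 0.73 and −0.98. With T cells carrying a Foxp3 UMI in place of the cluster, Sncg, Prg4, Ly6a and Fabp5 passed in edgeR (adjusted p 0.0105, 0.0228, 0.0228 and 0.0451). Klf5 did not (0.325). For Sncg and Prg4, which reached the main test through their p19-/- counts, passing again is no sign of stability.

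**Figure D4:**
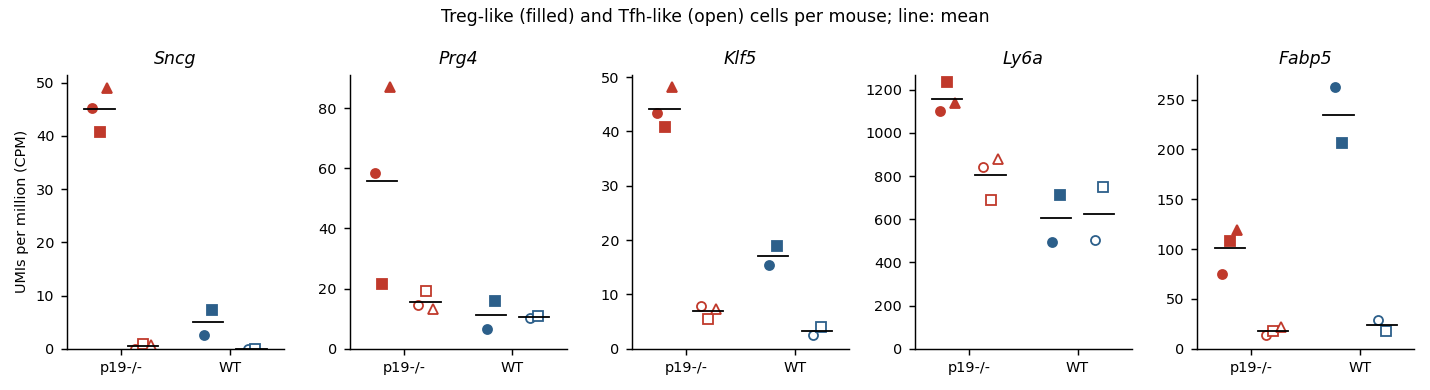
CPM (y axis, linear, starting at 0) of the 5 members that passed in Treg-like cells, by genotype (x axis). Filled points are Treg-like and open points Tfh-like sums, 1 point a mouse (circle 1, square 2, triangle 3), and the line is the group mean. In Treg-like cells the p19-/- points lie above the WT points for Sncg, Prg4, Klf5 and Ly6a and below them for Fabp5.

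The lineage factors themselves did not pass. Foxp3 in Treg-like cells had a log2 fold change of 0.02 ± 0.18 (SE, adjusted p 0.997) and Ikzf2 one of −0.16 ± 0.15 (adjusted p 0.885). The Ikzf2 values of the genotypes all but touched, at 842.0 CPM in p19-/- mouse 2 and 842.9 CPM in WT mouse 2. Il1r2 was at 0.16 ± 0.16 (adjusted p 0.910), Penk at −0.03 ± 0.20 (0.997) and Nrn1 at 0.16 ± 0.29 (0.964), each with overlapping groups (edgeR throughout). In simulated sums of the same depth, 46.0% of genes changed 2-fold and 91.5% of genes changed 4-fold were recovered, so smaller differences could be missed.

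Other measures moved with genotype in the same cells. The summed level of 11 heat shock genes, a list picked after its calls were seen, was 7739 to 11719 CPM in p19-/- and 4443 to 5603 CPM in WT Treg-like cells, and 6 of the 9 tested were higher in p19-/-. In Tfh-like cells that sum was 6739 to 9649 against 4196 to 4674 CPM, and 8 of 9 were higher. None of 7 immediate early genes passed in either class. Igkc, an immunoglobulin light chain gene of B lineage cells, was at 952, 1008 and 878 CPM in p19-/- against 561 and 399 CPM in WT Treg-like cells (log2 fold change 0.99, adjusted p 0.00426, edgeR). The 10 mature B cell markers summed to 79.5 to 279 against 106 to 152 CPM (1 of 7 tested passed), the 10 GC B markers to 214 to 223 against 163 to 172 CPM (0 of 4) and the 8 macrophage markers to 49.0 to 50.4 against 31.4 to 35.9 CPM (0 of 1). The 8 plasma cell markers summed to 226 to 268 CPM except in p19-/- mouse 2, at 1609.6 CPM, of which 1247 CPM was Jchain, and 0 of 6 tested passed. Of the 944 cells, 58 had a productive BCR contig on their barcode. With those barcodes left out, all 5 members that passed still did, Sncg and Prg4 having reached the main test through their p19-/- counts. B lineage RNA on barcodes without a contig stays in that fit, and its part in the differences was not tested. The part of the heat shock genes in these differences was not tested. Of the other T cell types, Cd8a and the gamma delta T markers were at 0 in every mouse, and the 4 CD8 T markers summed to 24.0 to 40.6 CPM in p19-/- against 9.42 to 11.5 CPM in WT mice, with 1 of 1 tested passing. The 10 Tfh markers summed to 2664 to 3478 against 2417 to 2484 CPM, without overlap, and 1 of 10 passed. The 4 plasmacytoid dendritic cell markers summed to 134 to 199.9 against 96.3 to 97.4 CPM (0 of 1 passed), with Siglech and Ccr9 at 0. The part of these cell types in the differences was not tested.

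The same contrast in Tfh-like cells served as a comparison class that is largely without Foxp3. There 61 of 9054 genes passed (0.674%) and none of the 9 members tested did. Foxp3, Il1r2, Klf5 and Ly6a had unadjusted p-values under 0.05, as did 896 genes in all, and DESeq2 called none of the members. Ly6a was at 841, 688 and 881 CPM (p19-/-) and 505 and 747 CPM (WT), with a log2 fold change of 0.38 ± 0.16 (SE, adjusted p 0.452, edgeR) and overlapping groups. Il1r2 had a log2 fold change of −0.61 ± 0.24 (SE, adjusted p 0.416), opposite in sign to Treg-like cells. Without WT mouse 1 it was −0.99 and passed (adjusted p 0.0188), and with no filter on low counts it was −0.62 and passed (0.000514). Foxp3 in these cells rested on 3 to 34 UMIs a mouse and was lower in every p19-/- mouse (log2 fold change −1.04 ± 0.42, adjusted p 0.437). Foxp3, Prg4 and Klf5 did not overlap between genotypes in Tfh-like cells, against a background of 25.6%. Sncg, with 1 UMI each in p19-/- mice 2 and 3 and 0 in the other 3, was too low to test.

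**Figure D5:**
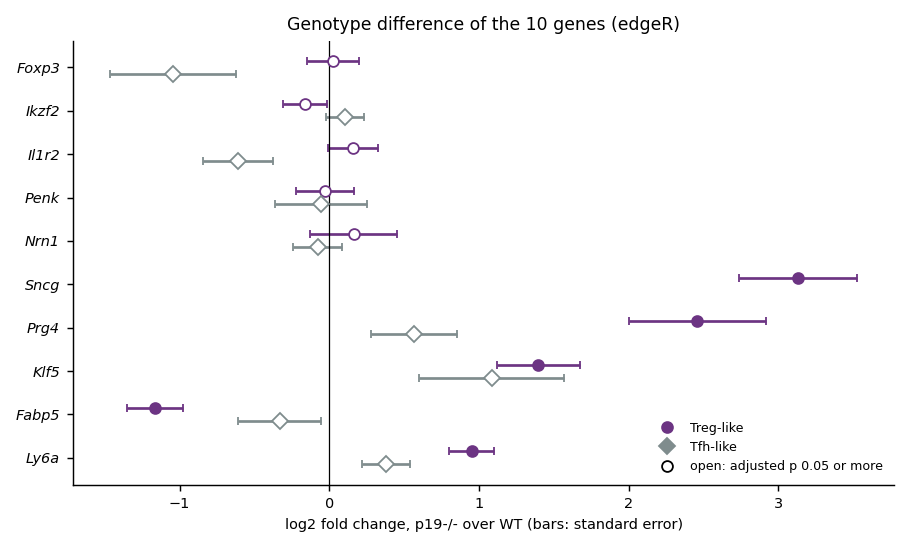
Log2 fold change of p19-/- over WT (x axis) for each gene (y axis) in Treg-like cells (purple circles) and Tfh-like cells (grey diamonds); bars are standard errors from edgeR over 3 and 2 mice. Filled symbols have an adjusted p under 0.05, and Sncg has no Tfh-like symbol because it was not tested there. The 5 filled symbols are all Treg-like, from −1.17 for Fabp5 to 3.13 for Sncg.

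Whether the genotype difference itself differs between the classes was tested by the interaction term with mouse as a block. It passed for 26 of 9199 genes (0.283%) and for none of the 10 members, with 546 genes at an unadjusted p under 0.05 and 4 calls by DESeq2. Ly6a came closest, at 0.57 ± 0.13 (SE) on the log2 scale with an adjusted p of 0.0516 (edgeR), and passed with BCR barcodes left out (0.0369) and with no filter on low counts (0.000253). Fabp5 was at −0.87 ± 0.26 (adjusted p 0.368), Il1r2 at 0.72 ± 0.20 (0.235) and Prg4 at 1.84 ± 0.58 (0.436). Il1r2 passed with no filter (adjusted p 0.00221), and Prg4 with no filter (0.0178) and without p19-/- mouse 2 (0.00701). Foxp3 was at 1.02 ± 0.40 (adjusted p 0.683), Ikzf2 at −0.28 ± 0.13 (0.836), Klf5 at 0.30 ± 0.61 (0.996), Nrn1 at 0.21 ± 0.32 (0.991) and Penk at 0.10 ± 0.25 (1.00). The Sncg term, at 0.64 ± 1.06, depends on WT Tfh-like sums of 0 and gives no bound. A genotype difference that differs between the classes was thus not called for any member in the fit with all mice and the filter, and was called in the alternatives named here for Ly6a, Il1r2 and Prg4.

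The interaction of genotype with the follicular gate passed for 2 of 3714 genes (0.0539%) and for none of the 8 members tested, with 166 genes at an unadjusted p under 0.05 and no call by DESeq2. Nrn1 was closest, at 1.95 ± 0.49 (SE) on the log2 scale with an adjusted p of 0.0768 (edgeR). Its values were 249, 475 and 501 CPM (p19-/-) and 389 and 268 CPM (WT) in follicular cells. In the others they were 214, 298 and 25.5 CPM (p19-/-) and 547 and 386 CPM (WT), the p19-/- mice lying below both WT mice on 1 to 7 UMIs each. Without p19-/- mouse 2 Nrn1 passed (adjusted p 0.00821), and without p19-/- mouse 3 Ly6a did (0.0202; 0.942 with all mice). Foxp3, Ikzf2, Il1r2, Penk, Prg4 and Fabp5 each had an adjusted p of 1.00, and Sncg and Klf5 were too low to test. Simulated 2-fold differences were recovered in 4.5% of genes and 4-fold ones in 48.0%, so this contrast had little power.

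The pathways around the members were read from lists of genes other than the 10, chosen with earlier results of these data known, in the Treg-like genotype comparison. The median log2 fold change of all genes tested was −0.00. Of 13 tested Treg core genes, such as Il2ra, Ctla4 and Ikzf4, none passed and the median was −0.02. The lowest p-values were those of Cd83 (log2 fold change 0.48, adjusted p 0.295), Il2ra (−0.47, 0.572) and Nrp1 (0.33, 0.769). Of 18 Treg effector genes, 1 rose and 1 fell, with a median of 0.13. Lag3, an inhibitory receptor, was at 488, 405 and 503 CPM (p19-/-) and 186 and 312 CPM (WT) (log2 fold change 0.92 ± 0.19, adjusted p 0.0270). Ebi3, a subunit of the cytokines IL-27 and IL-35, was at 22.6, 24.0 and 24.5 CPM (p19-/-) and 67.9 and 57.6 CPM (WT) (−1.36 ± 0.24, adjusted p 0.00794). Neither gene's groups overlapped. The Lag3 call was lost without p19-/- mouse 1 (adjusted p 0.0620), p19-/- mouse 3 (0.161) or WT mouse 1 (0.877), and the Ebi3 call without p19-/- mouse 3 (0.0689) or WT mouse 1 (0.239).

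Of 13 follicular program genes, 1 passed (median 0.04): Sostdc1, a secreted antagonist of BMP and Wnt signals, was at 754, 619 and 959.8 CPM (p19-/-) and 389 and 502 CPM (WT) (log2 fold change 0.83 ± 0.18, adjusted p 0.0325). Its adjusted p was 0.0525, 0.190, 0.887 and 0.238 without p19-/- mouse 1, p19-/- mouse 3, WT mouse 1 and WT mouse 2. Over all 15 alternatives the Sostdc1 call was lost in 7. Of 6 tested fatty acid handling genes, 1 passed (median −0.01), and it was the relative of Fabp5 called Fabp4. Fabp4 was at 0, 0 and 0.846 CPM (p19-/-) and 15.4 and 24.1 CPM (WT) a total of 1 UMI over the p19-/- and 35 UMIs over the WT mice. The ratio of the group totals was 0.0233 (exact 95% interval of the counts 0.000573 to 0.139, counting error only), and edgeR gave an adjusted p of 0.00426, or 0.127 without WT mouse 1. Fabp4 passed the filter on low counts through its WT counts alone. Of 13 interferon response genes, which the Ly6 family is often read with, 1 rose and 1 fell (median 0.15). Gbp8 was at 35.8, 60.0 and 39.7 CPM (p19-/-) and 3.84 and 16.8 CPM (WT) (log2 fold change 2.00 ± 0.40, adjusted p 0.0222), and Gbp9 at 18.9, 33.6 and 34.7 CPM (p19-/-) and 74.3 and 104 CPM (WT) (−1.55 ± 0.24, adjusted p 0.00426). Both encode guanylate-binding proteins, GTPases induced by interferon, and they moved in opposite directions. Gbp8 passed the filter on low counts through its p19-/- counts. Of the 15 alternatives the Gbp8 call was lost in 4 and the Gbp9 call in 2, including these left-out mice. The Gbp8 call was lost without p19-/- mouse 2 (adjusted p 0.0631), p19-/- mouse 3 (0.0983) or WT mouse 1 (0.335), and the Gbp9 call without WT mouse 2 (0.144).

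None passed among 6 resting and recirculating genes (median 0.04), 5 interleukin-1 family genes (median −0.12), 3 Ly6 family genes (median 0.09), 5 Krüppel-like factors (median −0.11) and 3 Ikaros family genes (median 0.06). The lowest p in these lists belonged to Lef1 (log2 fold change −0.51, adjusted p 0.548) for the resting and recirculating genes, Il18r1 (−1.07, adjusted p 0.352) and Il1rn (0.51, 0.563) for the interleukin-1 family, Ly6d (3.82, 0.199) for the Ly6 family, Klf6 (−0.51, 0.642) for the Krüppel-like factors and Ikzf1 (0.56, 0.422) for the Ikaros family. Ly6d was at 90.5, 24.0 and 5.07 CPM in p19-/- mice 1 to 3 and 3.84 and 1.05 CPM in WT mice 1 and 2. It was also among the leading genes of the cluster named Mature B-like and of an unnamed B cell cluster. The source of its UMIs in Treg-like cells was not tested. Of the 9 opioid peptide genes around Penk and the 2 other synucleins, none had the counts to be tested.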

How the data were processed

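Single cells of the spleen were profiled by droplet 5′ RNA sequencing with BCR enrichment. The authors deposited raw UMI counts per gene and barcode, 1 matrix per RNA library, together with BCR contig tables, which were used only to mark barcodes with a productive contig. Cell Ranger 3.0.2, STAR and mm10 are named in the submitters' processing notes, and gene positions are those of mm10. The 10 genes, the marker and pathway lists and the comparisons were chosen with earlier results of these data known.

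Of 11355 barcodes (69958493 UMIs), 1999 (17.6%) were removed for fewer than 200 genes or over 10% mitochondrial UMIs. Scrublet's own threshold marked 28 cells (0.299%), so the highest scores were marked up to an expected rate of 0.8% per 1000 cells, which gave 156 doublets (1.67%) and left 9200 cells. Each cell was scaled to 10000 UMIs. Clustering used 2000 variable genes, 20 principal components, 20 neighbours and Leiden resolution 1, leaving out the 10 genes, antigen receptor genes and sex-linked genes (Xist, Tsix, Y chromosome). Classes were named "-like" from fixed markers; clusters failing that rule stayed unnamed. CPM are UMIs per 1000000 UMIs in the sum of 1 class in 1 mouse.

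Summed counts were tested with edgeR 4.0.16 (TMM factors, default expression filter, quasi-likelihood test) in R 4.3.3, with Benjamini-Hochberg adjustment over all genes and a limit of 0.05. Genotype fits used the 5 mice of 1 class, and interaction fits added the second class or subset with mouse as a block. DESeq2 1.42.0, other scalings and filters, no doublet removal, a 5% mitochondrial limit, other definitions of Treg and follicular cells, sex as a covariate and leaving out each mouse were alternatives. Leaving out the highest Penk cells was added after seeing the data. Shares were compared by exact permutation over mice. Scripts ran in Python 3.11.15 with scanpy 1.11.5, leidenalg 0.10.2 and scipy 1.17.1, and the fits were tested on simulated counts. Members are named whether or not they passed. From each list the genes past the limit are named, up to 5 per direction, or else the 1 to 3 of lowest p. For likeness the closest 5 genes to Foxp3 and 2 to each other member are named, among genes at 10 CPM or more in at least 1 class; the result for Fabp5 is not reported here. The descriptive backgrounds cover genes with at least 50 UMIs in the cells compared. Summed counts rest on 77 to 287 Treg-like cells a mouse, and intervals on counts cover counting error only.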

Additional observations from a re-analysis of the deposited data

Results flagged for a closer look

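Tigit, an inhibitory receptor of T cells and a member of the Treg effector list, was picked out after its values were seen because its genotype difference itself differed between the classes. The interaction term, the log2 fold change in Treg-like cells less that in Tfh-like cells, was 0.58. Its adjusted p was 0.0153 over all genes (edgeR). In Treg-like cells Tigit was at 954, 1063 and 1267 CPM in p19-/- mice 1 to 3 and 765 and 899 CPM in the WT mice, and the genotype difference there did not pass on its own (log2 fold change 0.42, adjusted p 0.387).

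The BCR libraries, which no comparison used as a measurement, placed a productive contig on 58 of the 944 Treg-like barcodes (6.14%). These were 21 of 120, 6 of 77 and 20 of 287 in p19-/- mice 1 to 3. In WT mice 1 and 2 they were 8 of 252 and 3 of 208. With those barcodes left out, Sncg, Prg4, Klf5, Ly6a and Fabp5 still passed, and the Sncg log2 fold change was 2.59. That fit keeps any B lineage RNA on barcodes without a contig, whose part was not tested. Groups of 3 and 2 mice were too small for a test of single outlying mice.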

How the results depend on the processing

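Of the 5 members that passed in Treg-like cells, Sncg passed in all 15 alternatives (adjusted p at most 0.0132; it passed the filter on low counts through its p19-/- counts, so this is no sign of stability), Fabp5 and Ly6a in 14, Prg4 in 9 and Klf5 in 7. Prg4 also passed that filter through its p19-/- counts, so its passes are no sign of stability either. Where a call below changed, the cause was not tested. Leaving out 1 mouse at a time, the number of genes past the limit in Treg-like cells was 13 to 71 (57 with all mice: 13 without WT mouse 1, 22 without WT mouse 2, 36 without p19-/- mouse 3), and the members among them were 1 to 5 (1 without WT mouse 1, 3 without WT mouse 2 or p19-/- mouse 3). The number was 28 to 59 in Tfh-like cells (28 without p19-/- mouse 1), 8 to 42 for the interaction with class (8, 42 and 17 without p19-/- mouse 1, p19-/- mouse 2 and WT mouse 2) and 2 to 9 for the interaction with the follicular gate (6 and 9 without p19-/- mice 2 and 3). The members that moved the same way in every mouse between follicular and other cells were 3 to 5 (5 without WT mouse 2), and the difference in the share of Treg-like cells ran from −6.62 to 1.27 percentage points (1.00 without p19-/- mouse 1 and 1.27 without p19-/- mouse 2). Directions of members that did not pass were not stable. Over the left-out mice the log2 fold change in Treg-like cells ran from −0.32 to 0.33 for Penk, −0.19 to 0.14 for Foxp3, −0.23 to 0.51 for Nrn1 and −0.070 to 0.45 for Il1r2. In Tfh-like cells it ran from −0.60 to 0.19 for Penk, −0.32 to 0.035 for Nrn1, −0.033 to 0.17 for Ikzf2 and −0.68 to 0.039 for Fabp5. The interaction with class ran from −0.21 to 0.78 for Nrn1 and −0.24 to 0.48 for Penk, and that with the follicular gate from −1.01 to 0.080 for Il1r2, −2.98 to 4.41 for Prg4 and −2.93 to 0.028 for Penk.

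With no filter on low counts 161 genes passed in Treg-like cells, 257 in Tfh-like cells and 62 for the interaction with class. DESeq2 called 3 members in Treg-like cells, 4 genes for the interaction with class and 0 for that with the follicular gate. With sex as a covariate 35 genes and 3 members passed in Treg-like cells, and the Tfh-like log2 fold changes were −0.032 for Ikzf2, 0.19 for Penk and 0.036 for Nrn1. That fit is close to leaving out p19-/- mouse 3, the only male, and is no separate check. With T cells carrying a Foxp3 UMI in place of the cluster 21 genes passed and Penk was at 0.14. Without BCR barcodes Foxp3 was at −0.014, and without UMIs of other lineages Penk was at 0.016. With doublets kept 11 genes passed for the interaction with class. With the gate on Cxcr5 or Bcl6, 7 genes passed for the interaction with the gate, Ikzf2 was at 0.19, and 1 member moved the same way in every mouse. With a Foxp3 UMI required in both subsets these counts were 1 gene and 1 member.

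Mouse numbers 1 and 2 occur in both genotypes in the labels. The deviations of same-numbered mice from their group means correlated at −0.02 and 0.02 over 7843 genes. With 2 WT mice their deviations mirror each other, so these values cannot show whether the numbers pair the mice. With the replicate block 71 genes and 3 members passed in Treg-like cells (Prg4 adjusted p 0.0613, Klf5 0.115) and 27 genes in Tfh-like cells, where Ikzf2 was at −0.032, Penk at 0.19 and Nrn1 at 0.0019. In that fit p19-/- mouse 3 stood alone in its block and gave no information on genotype.

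The 2 WT mice set the precision of every genotype comparison. Nothing in the labels says whether the mice shared a capture day, so a batch and genotype cannot be told apart. Prg4, Klf5 and Sncg rest on 2 to 103 UMIs a mouse.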
